A study of Rattus norvegicus with 6 samples.

Results

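The miR-15 family is a set of microRNAs (miRNAs) that carry nearly the same seed, the short stretch at the 5′ end of a miRNA that pairs with target mRNAs. Its members on the array were the rows named for an arm of miR-15a, miR-15b, miR-16, miR-195, miR-497, miR-322 or miR-503, miR-322 being the rat form of human miR-424. The rule took no measured value, and it found 12 arms of 6 precursors among 719 rat miRNAs, with no row named miR-15a. Of the 12 arms, 4 were well above background and could be tested: rno-miR-15b-5p, rno-miR-16-5p, rno-miR-322-5p and rno-miR-322-3p. The prefix rno, for rat, is dropped from other names here. By their labels the cells were rat primary skeletal muscle cells (RSkMC) from limb muscle of newborns. The labels state growth in 10% fetal bovine serum and then differentiation over 11 days under 2% horse serum. The 3 control samples received no agent, and the 3 treated samples received the neutrophil-attracting chemokine interleukin-8 (IL-8, recombinant, 1 ng/ml). The growth protocol in the labels mentions IL-8 for all 6 samples, and the titles, agent labels and design text were followed in calling 3 of them untreated.

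In dividing myoblasts these miRNAs are known as brakes on the cell cycle. They repress D-type and E-type cyclins and the phosphatase Cdc25a, which activates cyclin-dependent kinases, and miR-15b and miR-16 also repress the survival factor Bcl2. miR-322 and miR-503 are known to increase when myoblasts leave the cell cycle to differentiate, and miR-195 and miR-497 are associated with quiescence of muscle stem cells after birth. Each precursor hairpin gives a 5p and a 3p arm, and in this family the 5p arm carries the shared seed.

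The mature sequences below, from RefSeq, show what the 5p arms share and where they part. All 12 arms matched a RefSeq entry by name. Capitals mark the seed, bases 2 to 8 from the 5′ end. The 3p arm of miR-322 is added because it was the only 3p arm of the family well above background.
miR-15b-5p: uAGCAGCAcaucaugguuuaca
miR-16-5p: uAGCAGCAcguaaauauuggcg
miR-195-5p: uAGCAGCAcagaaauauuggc
miR-497-5p: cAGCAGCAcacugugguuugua
miR-322-5p: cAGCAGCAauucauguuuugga
miR-503-5p: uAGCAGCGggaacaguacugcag
miR-322-3p: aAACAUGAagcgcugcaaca

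The seed AGCAGCA was shared by miR-15b-5p, miR-16-5p, miR-195-5p, miR-497-5p and miR-322-5p, and these 5 were the only carriers among the 651 array miRNAs with a RefSeq mature sequence of the same name (0.768%). miR-503-5p shared the first 6 seed bases and differed in the last. The 3p arm of miR-322 has an unrelated seed. Outside the seed the 5p arms diverge: miR-16-5p and miR-195-5p were the most alike, with 19 of 21 positions equal when aligned from the 5′ end, and miR-497-5p and miR-503-5p the least, with 10 of 22. miR-15b-5p and miR-16-5p, although neighbours, had 14 of 22 positions equal.

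The genes lie in 3 pairs (RefSeq, GRCr8). The mature miR-15b-5p (chr2:155555197-155555218, plus strand) is followed after 124 bases by miR-16-5p (chr2:155555343-155555364). miR-497-5p (chr10:55450172-55450193, plus strand) is separated by 315 bases from miR-195-5p (chr10:55450509-55450529). miR-322-5p (chrX:137726198-137726219, minus strand) and miR-503-5p (chrX:137725899-137725921) are 276 bases apart, at the start of a cluster that goes on with miR-351, miR-542 and miR-450a. The hairpin of Mir322 (chrX:137726147-137726241, minus strand) is shown with both arms in capitals, since both were measured. Whether these positions are exonic or intronic in a host transcript was not analysed here.
Mir322 hairpin: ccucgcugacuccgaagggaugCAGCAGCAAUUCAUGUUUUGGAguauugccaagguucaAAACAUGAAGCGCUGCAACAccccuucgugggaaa

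Total RNA was hybridised to 1-colour Agilent arrays, 1 per sample, with 1730 probes for rat miRNAs, and 167 of the 719 miRNAs were tested. The control arrays shared 1 slide and the IL-8 arrays a second slide (2 slides, each scanned once), and the effects of slide and of IL-8 cannot be told apart below. The 75th percentile of the signal over 264 probes detected on every array ran from 440 to 496.8 on control arrays and from 540 to 569 on IL-8 arrays, and each array was divided by it. Separate cultures per sample are not stated in the labels. The p-values thus reflect the scatter among these 6 samples, possibly a technical one, and having 3 arrays a group limits the precision. The labelled cell type was checked against its markers: 0 of 14 arms of the muscle-enriched miR-1, miR-133, miR-206, miR-208 and miR-499 were detected on any array, against 6 of 8 arms of the fibroblast and smooth muscle miRNAs miR-143, miR-145, miR-199a and miR-214. Of blood, endothelial, epithelial and neural marker arms, 0 of 8, 0 of 2, 0 of 10 and 0 of 4 were detected. The muscle markers thus did not bear out the muscle label, and the reason was not tested.

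Detection divided the family. Of the 6 seed-bearing 5p arms, miR-15b-5p, miR-16-5p and miR-322-5p were detected on each of the 6 arrays, and miR-195-5p, miR-497-5p and miR-503-5p on none. Of the 6 3p arms, miR-322-3p alone was detected, again on all 6 arrays. The other 8 arms had 18 probes, and none of their 108 probe values exceeded the 95th percentile of the 434 negative control spots of the same array. Of those 108 values 62 were below 0 after background subtraction, and 4 of the 960 single spots behind them were well above background. The highest was 9.07 for the longer probe of miR-503-5p on IL-8 replicate 1, while the lowest signal called well above background ran from 12.3 to 17.1 between arrays. No level or change with IL-8 could therefore be given for miR-195, for miR-497 or for miR-503; a weak signal could stay below this limit.

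**Figure D1:**
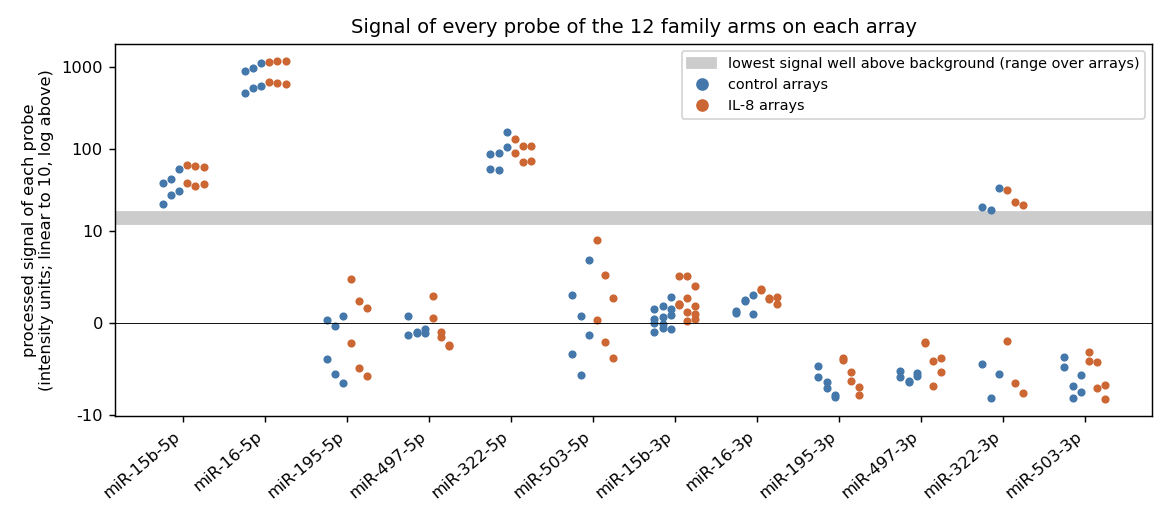
Processed signal (intensity units, linear up to 10 and logarithmic above) of every probe of the 12 family arms, 1 point per probe and array, control arrays in blue and IL-8 arrays in orange; the grey band is the range over arrays of the lowest signal called well above background (12.3 to 17.1). Only miR-15b-5p, miR-16-5p, miR-322-5p and 1 of the 2 probes of miR-322-3p lie above the band.

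Probe design bears on what these signals can show, because related members could bind each other's probes. The longer probes of miR-16-5p and miR-195-5p are printed with the bases opposite the seed in capitals. They are complementary to the 3′ part of their miRNA and reach only partly into the seed.
Probe of miR-16-5p: cgccaatatttacgTGCTG
Probe of miR-195-5p: gccaatatttctgTGCTGC

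The miR-195-5p probe differs from a perfect partner of miR-16-5p by 2 mismatches. On IL-8 replicate 1 the longer miR-16-5p probe read 1152, and the miR-195-5p probe read 4.79, its highest value on any array. The probe of the nearest relative thus stayed under the detection limit on an array with bright miR-16-5p. Probes of miR-15b-5p and miR-322-5p differ from each other's target by 5 mismatches, and from that of miR-16-5p by 8 and 9. The probes of miR-322-3p differ by a single base, and the longer alone was detected. The probe tgttgcagcgctTC read 18.3 to 33.7 over the arrays, and the probe tgttgcagcgctT, shorter by its last base, stayed at or below -1.96. miR-322-3p therefore rests on 1 probe, while the other tested members rest on 2 each, and the shorter of those 2 lies within the longer, so they are not independent.

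With IL-8 no member of the family passed the test. Of the 4 tested arms, 2 had higher and 2 lower means with IL-8, and 0 had an adjusted p under 0.05 (limma, Benjamini-Hochberg over 167 miRNAs), against 7.19% of all tested miRNAs (12 of 167, with 6 higher and 6 lower). At unadjusted p under 0.05 there was 1 member, miR-15b-5p, against 25.1% of all tested (42 of 167). The median log2 change of the 4 arms was -0.048, beside 0.019 over all tested miRNAs. Division by a percentile takes out any shift common to all miRNAs, so these differences are relative ones.

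rno-miR-15b-5p, a repressor of cyclins and of Bcl2, had the largest difference. Its processed signals, means of its 2 probes, were 30.2, 35.6 and 43.9 on the control arrays and 51.7, 48.9 and 49.3 on the IL-8 arrays. After scaling, the log2 levels were -3.92, -3.78 and -3.56 in control and -3.50, -3.54 and -3.50 with IL-8. All IL-8 arrays lay above all control arrays, with control replicate 3 close beneath them, a separation seen in 29.9% of all tested miRNAs. The control mean was -3.75 ± 0.18 (SD, n = 3) and the IL-8 mean -3.51 ± 0.025 (SD, n = 3), a 1.18-fold difference (95% CI 1.02 to 1.37, limma unadjusted p = 0.0321, adjusted p = 0.162). Both probes were higher with IL-8, by 0.26 and 0.22 on the log2 scale. Without control replicate 3 the log2 difference was 0.34 and passed (limma adjusted p = 0.00649), as did 19.8% of all tested miRNAs. It also passed without scaling between arrays, at 0.47 (limma adjusted p = 0.0252). In that setting 52 of 167 miRNAs passed, all higher with IL-8, and the median over all tested miRNAs was 0.25. With the normexp background, which adds an offset of 50 to every spot while the processed signals of the 2 miR-15b-5p probes were 21.8 to 64.1, the log2 difference was -0.0047 (adjusted p = 0.941).

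rno-miR-16-5p, a broadly expressed member whose listed position lies 124 bases after miR-15b-5p, was nearly level. Its processed signals were 683, 762 and 843 on the control arrays and 901, 904 and 893 on the IL-8 arrays, so that before scaling every IL-8 array lay above every control array. The IL-8 arrays were brighter as a whole. Without scaling the log2 difference of miR-16-5p was 0.24, beside a median of 0.25 over all tested miRNAs. Log2 levels were 0.57, 0.62 and 0.69 in control and 0.60, 0.65 and 0.66 with IL-8, and the groups overlapped. The log2 difference was 0.010 ± 0.056 (SE), a fold of 1.01 (95% CI 0.920 to 1.103, limma adjusted p = 0.947). This interval is the narrowest of the 4 members. Its sign turned when scaled by the 75th percentile of all probes (-0.087), by the median (-0.022) and without control replicate 1 (-0.0027), none of them past the threshold.

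**Figure D2:**
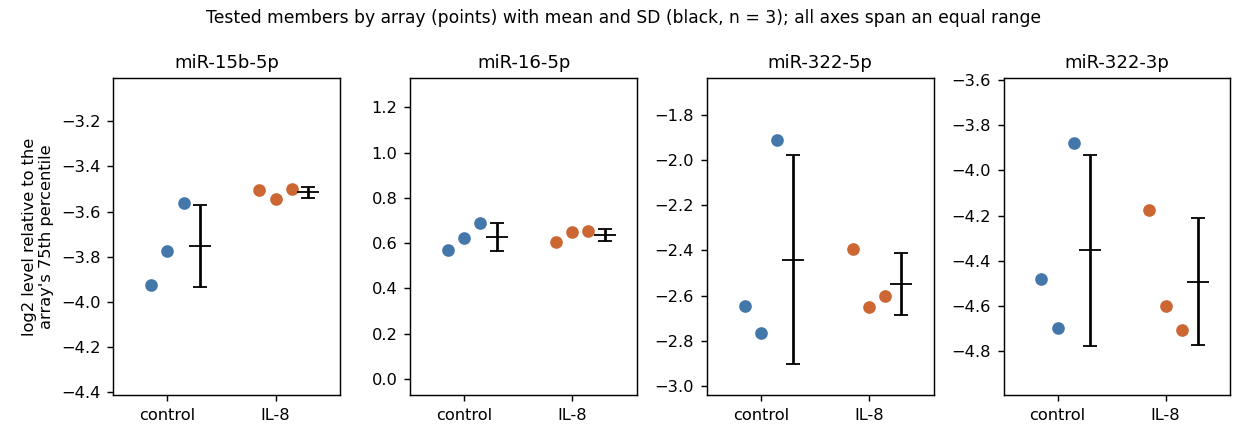
Log2 level relative to the 75th percentile of each array for the 4 tested members, 1 point per array (replicates 1 to 3 from left to right), with mean and SD in black (n = 3); every axis spans the same range of log2 units. miR-15b-5p separates by group with control replicate 3 nearest the IL-8 arrays, miR-16-5p hardly varies, and both miR-322 arms are highest on control replicate 3.

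Whether 2 miRNAs encoded side by side moved apart was asked within each array, where scaling by 1 factor cancels. That both come from 1 transcript was not tested, and other genes for miR-16-5p were not looked for. The log2 level of miR-15b-5p minus that of miR-16-5p was -4.49, -4.40 and -4.25 on control arrays and -4.11, -4.19 and -4.15 on IL-8 arrays. Probes differ in brightness, so only its shift between groups can be read. Every IL-8 array lay above every control array, and how many other pairs separate in this way was not counted. The shift was 0.23 (exact two-sided permutation p = 0.1, the smallest 3 against 3 arrays can give, and 0.2 after Benjamini-Hochberg adjustment over 2 pairs). It is close to the difference of miR-15b-5p alone (0.24), since miR-16-5p differed by 0.010, and is not a separate result. With the normexp background the shift was -0.021 (exact permutation p = 0.4). The planned pairs of miR-195 with miR-497 and of miR-322 with miR-503 could not be compared, since miR-195-5p, miR-497-5p and miR-503-5p were not detected.

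rno-miR-322-5p, the arm that represses Cdc25a, varied more between control arrays than between groups. Its processed signals were 72.0, 71.8 and 135 on the control arrays and 110, 89.8 and 91.1 on the IL-8 arrays. The log2 levels were -2.65, -2.77 and -1.91 in control and -2.39, -2.65 and -2.60 with IL-8. Control replicate 3 was the highest of all 6 arrays and the other control arrays were at or near the bottom, so the groups overlapped. The log2 difference was -0.11 ± 0.21 (SE), a fold of 0.928 (95% CI 0.662 to 1.301, limma adjusted p = 0.814). Without control replicate 3 it was 0.16 (limma adjusted p = 0.207), so this array set the sign.

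rno-miR-322-3p, the other arm of the same hairpin, followed the same course. Its signals were 19.7, 18.3 and 33.7 on the control arrays and 31.5, 22.7 and 20.7 on the IL-8 arrays. In log2 levels that was -4.48, -4.70 and -3.88 in control and -4.17, -4.60 and -4.71 with IL-8. Control replicate 3 was again the highest, and IL-8 replicate 1 the next. The log2 difference was -0.14 ± 0.22 (SE), a fold of 0.908 (95% CI 0.636 to 1.297, limma adjusted p = 0.787), and 0.10 without control replicate 3 (adjusted p = 0.639). It was called lower only with the normexp background (-0.18, limma adjusted p = 0.0120), a setting in which the median over all 167 stood at -0.071. There an offset of 50 is added before the division by the percentile, and it exceeds the signals of this probe, 18.3 to 33.7. Of the 24 miRNAs called in that setting, 23 were lower with IL-8. Whether the offset led to the call of miR-322-3p was not tested. The level of the 5p arm minus that of the 3p arm was 1.84, 1.93 and 1.97 on control arrays and 1.78, 1.95 and 2.11 on IL-8 arrays. That balance between the arms shifted by 0.031 with IL-8 (exact two-sided permutation p = 0.9, also after adjustment over 2 pairs). The SD of the balance was 0.068 over the control arrays and 0.16 over the IL-8 arrays. The separate arms (5p and 3p) had SDs of 0.46 and 0.42 over the control arrays, and 0.14 and 0.28 over the IL-8 arrays.

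The high value on control replicate 3 extended along the chromosome X cluster. Of 6 arms of miR-351, miR-542 and miR-450a on the array, 2 were tested: miR-450a-5p, whose gene product lies 5191 bases from miR-322-5p, and miR-542-3p, at 3991 bases. miR-450a-5p stood at log2 levels of -3.33, -3.38 and -2.77 in control and -3.16, -3.29 and -3.38 with IL-8. It rests on 1 probe, which read 43.7 to 73.0, while its other probe read -1.09 to 4.01 and was detected on no array. miR-542-3p stood at -4.73, -4.75 and -4.02 in control and -4.30, -4.39 and -4.52 with IL-8, and its 1 probe in use was detected on 2 of the 3 control arrays, so that it entered through the IL-8 group. Both were highest on control replicate 3. On that array miR-322-5p exceeded the mean of control replicates 1 and 2 by 0.79 log2 units, miR-542-3p by 0.72, miR-322-3p by 0.71 and miR-450a-5p by 0.59. These gaps ranked 1, 3, 5 and 6 from the highest among 167 miRNAs, whose median gap was 0.089. The remaining ranks up to 6 belonged to miR-193a-3p (0.79) and miR-136-5p (0.71), which are not in the cluster and were named after their values were seen. miR-15b-5p ranked 25 with a gap of 0.29, and miR-16-5p ranked 80 with 0.095, close to the median gap. These ranks describe 1 array and were looked up after the levels had been seen.

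**Figure D3:**
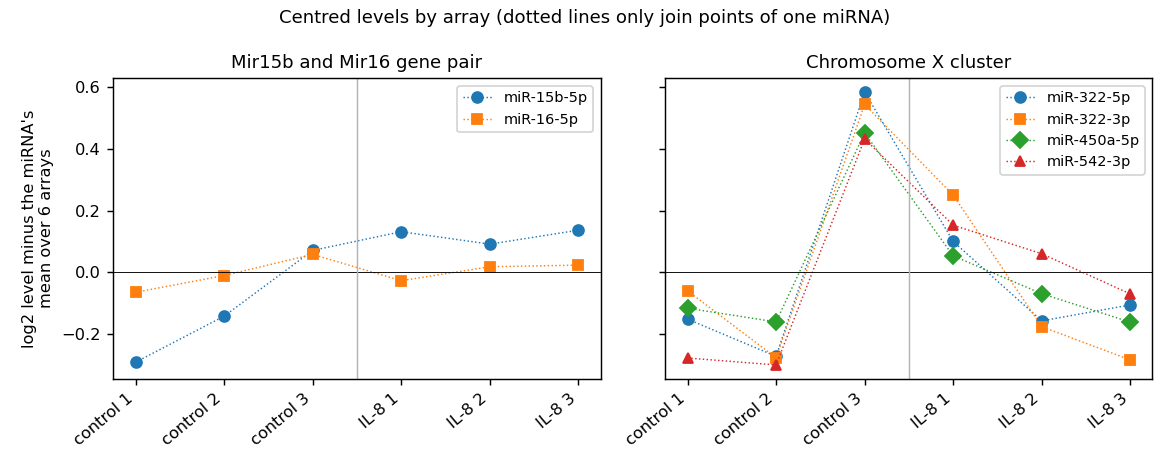
Log2 level minus the mean over 6 arrays, by array, for miR-15b-5p and miR-16-5p (left) and for the 4 tested miRNAs of the chromosome X cluster (right); dotted lines only join points of the same miRNA. The 4 cluster miRNAs are all highest on control replicate 3, at 0.43 to 0.58 above their means, while miR-16-5p stays within 0.064 of its mean.

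Neither cluster neighbour differed between the groups by the test. The log2 difference was -0.12 ± 0.16 (SE) for miR-450a-5p (limma adjusted p = 0.739) and 0.096 ± 0.19 (SE) for miR-542-3p (limma adjusted p = 0.814). Without control replicate 3 they were 0.084 (limma adjusted p = 0.465) and 0.34 (limma adjusted p = 0.00901). In that setting 19.8% of all tested miRNAs passed (33 of 167, of which 25 were higher with IL-8), and miR-542-3p had entered the test through the IL-8 group, so its value is given as a description.

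The nearest relatives by sequence outside the family are miR-103 and miR-107, which hold the same AGCAGCA at their 5′ end but 1 base earlier, so that their seed is GCAGCAU. They are known for links to insulin signalling. Of their 5 arms on the array 2 were tested and neither passed. miR-107-3p stood at log2 levels of -0.50, -0.46 and -0.41 in control and -0.58, -0.61 and -0.54 with IL-8, with every IL-8 array below every control array, a separation seen in 29.9% of all tested miRNAs (log2 difference -0.12 ± 0.054 SE, limma adjusted p = 0.219). miR-103-3p differed by 0.00077 ± 0.057 (SE), with adjusted p = 0.997 by limma. Their control SDs were 0.043 and 0.063, beside 0.46 and 0.42 for the miR-322 arms. These SDs were taken at unlike signal levels, with control means of -0.46 and -0.25 against -2.44 and -4.35.

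**Figure D4:**
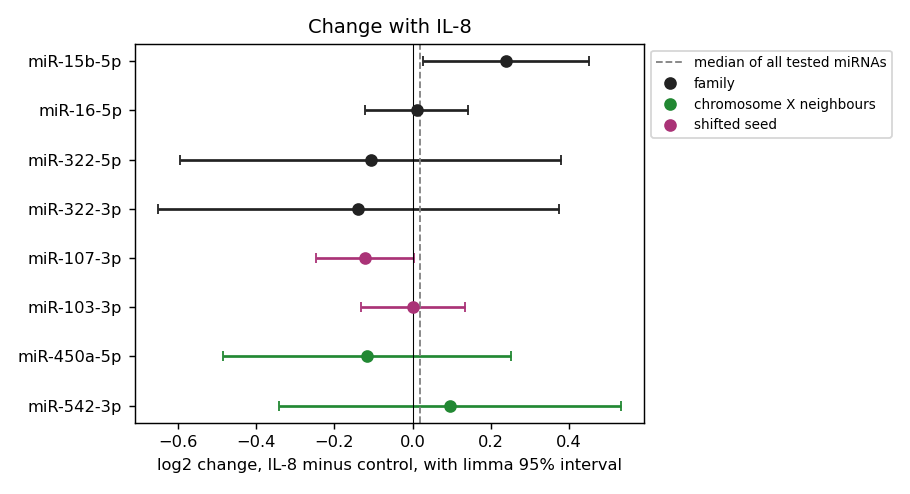
Log2 change with IL-8 (IL-8 minus control) and its 95% interval from limma for the 4 family members (black), the 2 tested shifted-seed miRNAs (purple) and the 2 tested neighbours on chromosome X (green); the dashed line is the median of all 167 tested miRNAs (0.019). The interval of miR-15b-5p alone excludes 0 before adjustment, and the chromosome X miRNAs have the widest intervals.

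Other miRNAs tied to growth control are given by their counts, beside the 7.19% of all tested miRNAs that passed. Of the let-7 and miR-34 families, which restrain growth, 12 of 23 arms were tested and 0 passed. Means with IL-8 were higher for 5 and lower for 7, with a median log2 change of -0.014. The smallest p in that list belonged to miR-34c-5p, an effector of p53, at -0.26 ± 0.062 (SE) and a limma adjusted p of 0.0501. At unadjusted p under 0.05 there were 3 of the 12, against 25.1% of all tested. The groups did not overlap in these 3, a separation seen in 29.9% of all tested miRNAs. They were miR-34c-5p, miR-34b-5p (-0.25) and, in the other direction, miR-34a-3p (0.18). Of these, miR-34b-5p and miR-34a-3p were named after the values were seen. Of the miR-17 seed group with its neighbour miR-18a and of miR-221 and miR-222, which favour proliferation, 7 of 17 arms were tested and 0 passed. Means were higher for 4 and lower for 3, with a median of 0.016. miR-222-3p, a repressor of the cell cycle inhibitor p27, had the smallest p there, at -0.16 ± 0.066 (SE) and a limma adjusted p of 0.181.

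Likeness between miRNAs was measured as the root mean square difference of their log2 profiles over the 6 arrays, each centred on its own mean. This measure favours miRNAs that vary little. Within the family the closest profiles were those of the miR-322 arms (0.10 log2 units), followed by miR-15b-5p and miR-16-5p (0.14). Between these pairs the differences were 0.26 to 0.30. The distance between miR-15b-5p and miR-16-5p was below the median distance to all other tested miRNAs for miR-15b-5p (0.16). For miR-16-5p it was above that median (0.086). For miR-322-3p that median was 0.31. The tested miRNA nearest to miR-322-5p was miR-450a-5p of the same cluster (0.086, against a median of 0.28 over all others), and the nearest to miR-322-3p was miR-322-5p. miR-16-5p lay nearest to miR-34a-5p (0.0097) and miR-15b-5p to miR-218a-5p (0.028). The mean profile of the 4 members lay nearest to miR-140-5p (0.060), miR-450a-5p (0.075) and miR-140-3p (0.080), against a median of 0.17. On control replicate 3 the miR-322 arms weigh most in that mean. There miR-322-5p and miR-322-3p stood 0.58 and 0.54 above their own means, against 0.071 for miR-15b-5p and 0.058 for miR-16-5p.

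The members differed in their scatter over replicates. The control SD of miR-322-5p (0.46) ranked 4 from the highest of 167 and that of miR-322-3p (0.42) ranked 5, while the median control SD was 0.086. On the IL-8 arrays the SDs were 0.14 and 0.28, ranking 17 and 1, beside a median of 0.057. miR-16-5p ranked 124 and 153, with SDs of 0.061 and 0.028. Within an array, the coefficient of variation over the 10 spots of a probe was 8.30% to 16.9% and 6.04% to 9.89% for the shorter and the longer miR-322-5p probe, and 7.13% to 11.5% for the miR-322-3p probe in use. For the miR-16-5p probes it was 4.20% to 8.45% and 1.99% to 8.22%.

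**Figure D5:**
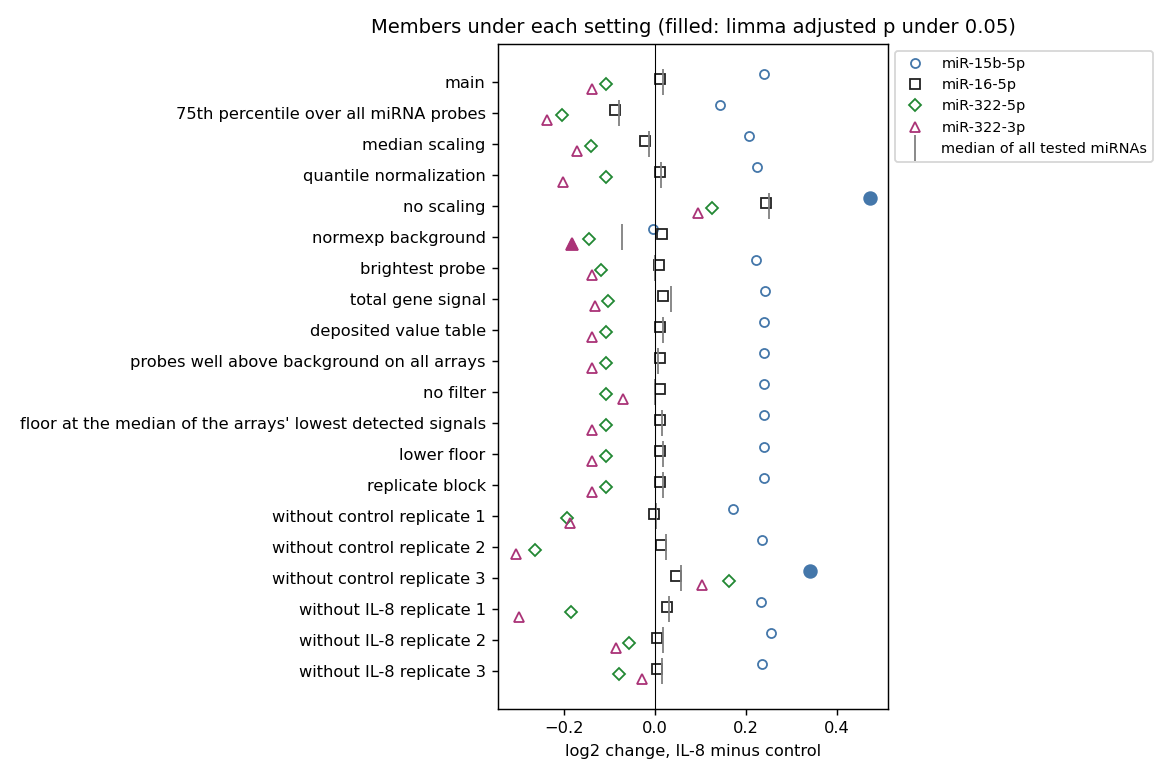
Log2 change with IL-8 of the 4 members under the main setting and 19 alternatives (filled symbols: limma adjusted p under 0.05), with the median of all tested miRNAs as a grey bar. miR-15b-5p was called without scaling and without control replicate 3, and miR-322-3p with the normexp background; both miR-322 arms lay above 0 without scaling and without control replicate 3, and below 0 in the other settings drawn.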

How the data were processed

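The deposited array files hold spot intensities on a linear scale, made with Agilent Feature Extraction 10.10.1.1 per the submitters' processing notes, with background subtracted and, per the file headers, no normalization between arrays; the design is on rn4. No rat miRNA spot was saturated. Spots of a probe were averaged without outliers. A probe was well above background on an array where more than 50% of its spots were. Arrays were divided by their 75th percentile over 264 probes detected on all arrays, floored at a log2 level of -5.45 (2 miRNAs reached it, no family member) and put on log2. A miRNA was tested where a probe was detected on all 3 arrays of a group, as the mean of such probes. Groups (titles) were compared with limma 3.58.1 in R 4.3.3 (lmFit, eBayes) and version 1.17.8 of data.table, with Benjamini-Hochberg adjustment at 0.05; the steps were tested on simulated data. The deposited table of intensities equalled the software's total probe signal at all 15095 features (relative tolerance 1e-04); its scale is linear and not centred, with column medians of -0.529, -1.35 and -1.17 (control) and 0.307, -0.802 and -1.18 (IL-8).

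Named were all family arms, the tested members of 2 further lists, the smallest p of 2 others and the nearest profiles. Members and lists were chosen with earlier results of these data known. Sequences and positions are from RefSeq on GRCr8; the rn4 probe positions were not used. Alternatives were other scalings, background, probe summaries, filters, floors, the deposited table, a replicate block and leaving out each array.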

Additional observations from a re-analysis of the deposited data

How the results depend on the processing

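The count of miRNAs past the threshold by limma was 12 and became 0 with the 75th percentile over all probes (9 at unadjusted p under 0.05), 52 without scaling (all higher), 24 with the normexp background (23 lower), 0 with no filter on dim probes (38 at unadjusted p under 0.05), 3 with the replicate block and 10 with a floor at the median of the arrays' lowest detected signals, a setting chosen after seeing the data. Median scaling gave 14 (4 higher, 10 lower) and the total gene signal 10 (7 higher, 3 lower). Leaving out 1 array gave 1 to 33: 9 without control replicate 1, 3 without control replicate 2, 33 without control replicate 3, 5, 1 and 4 without IL-8 replicates 1, 2 and 3. Of the family 0 members were called, against 1 without scaling (miR-15b-5p), 1 with normexp (miR-322-3p) and 0 to 1 when an array was left out (miR-15b-5p without control replicate 3). The family median was -0.048, 0.18 without scaling, -0.15 with the 75th percentile over all probes and -0.12 to 0.13 over the leave-outs. The sign of miR-16-5p turned with the percentile over all probes (-0.087), with median scaling (-0.022) and without control replicate 1 (-0.0027). Its highest value was 0.24 without scaling, and 0.047 among the leave-outs. That of miR-15b-5p turned with normexp (-0.0047). Signs also turned for miR-322-5p (0.13 without scaling, 0.16 without control replicate 3, against -0.26 without control replicate 2) and miR-322-3p (0.094 and 0.10, against -0.30). The shift of miR-15b-5p against miR-16-5p was -0.021 with normexp and 0.17 to 0.29 over the leave-outs. That of the miR-322 arms was -0.038 with no filter, which adds its undetected probe, and -0.050 to 0.11 over the leave-outs, with -0.0066 without control replicate 1. The causes were not tested, except that no scaling by 1 factor can change these shifts. Adjusted p ran from 0.00649 to 0.998 for miR-15b-5p, 0.0749 to 0.998 for miR-16-5p, 0.0120 to 0.998 for miR-322-3p and 0.145 to 0.998 for miR-322-5p over 19 alternatives. Deviations of same-numbered arrays correlated at 0.24, 0.32 and 0.079. Differently numbered arrays were not set beside them, so these values cannot decide whether the numbers pair the samples. In the main setting the samples were treated as unpaired, and the block changed no member's call. A slide block could not be fitted. Signal over background limits all statements on the 8 undetected arms.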
